A study of Homo sapiens with 12 samples.

Results

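The inhibitor of DNA binding genes ID1, ID2, ID3 and ID4, the inhibitory SMAD genes SMAD6 and SMAD7, the ligand genes BMP4 and BMP7, the corepressor gene SKIL and the decoy receptor gene BAMBI were followed in HEK293T cells depleted of CARM1 or of a subunit of the nucleosome remodeling and deacetylase (NuRD) complex. These 10 genes were taken by name, and each matched 1 Ensembl identifier among the 58662 identifiers of the count files that were found in the annotation. HEK293T is an established human embryonic kidney cell line. Cells received a control siRNA (siCTL) or an siRNA against CARM1 (siCARM1), CHD4 (siCHD4), HDAC2 (siHDAC2), GATAD2A (siGATAD2A) or KDM1A (siKDM1A), and 2 RNA-seq libraries were sequenced from each of the 6 groups. CARM1 is an arginine methyltransferase, CHD4 the remodeling ATPase of NuRD, HDAC2 a histone deacetylase, GATAD2A a zinc-finger subunit and KDM1A a histone demethylase. No time after transfection or dose is given in the labels, and each target has 1 siRNA group. Nothing says whether the libraries of a group came from separate cultures. The p-values thus rest on the spread between libraries, estimated jointly over the 6 groups, and that spread may be technical. Between replicates, the chi-square per degree of freedom ranged from 1.77 in siCHD4 to 4.97 in siCARM1, so the joint estimate may understate the spread in siCARM1.

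Bone morphogenetic proteins (BMPs) bind cell surface receptors that phosphorylate SMAD1, SMAD5 and SMAD9, which enter the nucleus with SMAD4 and activate target genes. The ID genes are among the best known of these targets. Their products lack a DNA-binding region, hold E proteins such as TCF3 in dimers that cannot bind DNA, and thereby restrain differentiation in many tissues. SMAD6 and SMAD7 are also induced by the pathway and feed back on the receptors, SMAD6 mainly on the BMP branch and SMAD7 on both the BMP and the TGF-beta branch. BAMBI encodes a receptor-like protein without a kinase domain, and SKIL (SnoN) a nuclear protein that represses SMAD-driven transcription.

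Most called changes in these genes were decreases, and most of those were found in siHDAC2, siGATAD2A and siKDM1A. A gene was called lower or higher when its edgeR adjusted p-value against siCTL was at most 0.05 and its fold change at least 1.2. In siHDAC2, 8 of the 10 genes were lower and 0 were higher, where 9.00% of the 12830 coding genes tested were lower and 10.6% higher. In siGATAD2A, 6 were lower and 0 higher, against 18.2% and 15.7% of all genes tested. In siKDM1A, 6 were lower and 1 was higher, against 11.5% and 14.2%. In siCHD4, 4 were lower and 1 was higher, against 24.9% and 24.0%. In siCARM1, 1 was lower and 0 were higher, against 14.5% and 14.9%, so that the share in siCARM1 was near that of all genes. These 5 comparisons share the siCTL libraries and are not independent of each other. The 10 genes were chosen with earlier results of these data known, so the counts beside these shares are a description and not a test.

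The median log2 fold change over the 10 genes was most negative in siHDAC2, at −0.55, followed by siKDM1A at −0.31, siGATAD2A at −0.29, siCHD4 at −0.18 and siCARM1 at −0.04. Over all genes tested, the median lay between −0.0024 and 0.0051 in the 5 knockdowns. The SD of their log2 fold changes was 0.74 in siCHD4, 0.46 in siGATAD2A, 0.41 in siKDM1A, 0.40 in siCARM1 and 0.33 in siHDAC2. Changes that were largest in siCHD4 are to be read beside this wider spread. Of the 50 changes, 25 were called lower, 2 higher and 23 neither, and 9 of those 23 passed the adjusted p-value but not the fold minimum. The changes were modest: SMAD6 in siCHD4, at 2.32-fold lower, was the only one past 2-fold, and the smallest called change was 1.203-fold. An F test among the 5 knockdowns, which leaves siCTL out of the contrast, passed for all 10 genes, and it also passed for 88.1% of all genes tested, so it does not set these genes apart.

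**Figure D1:**
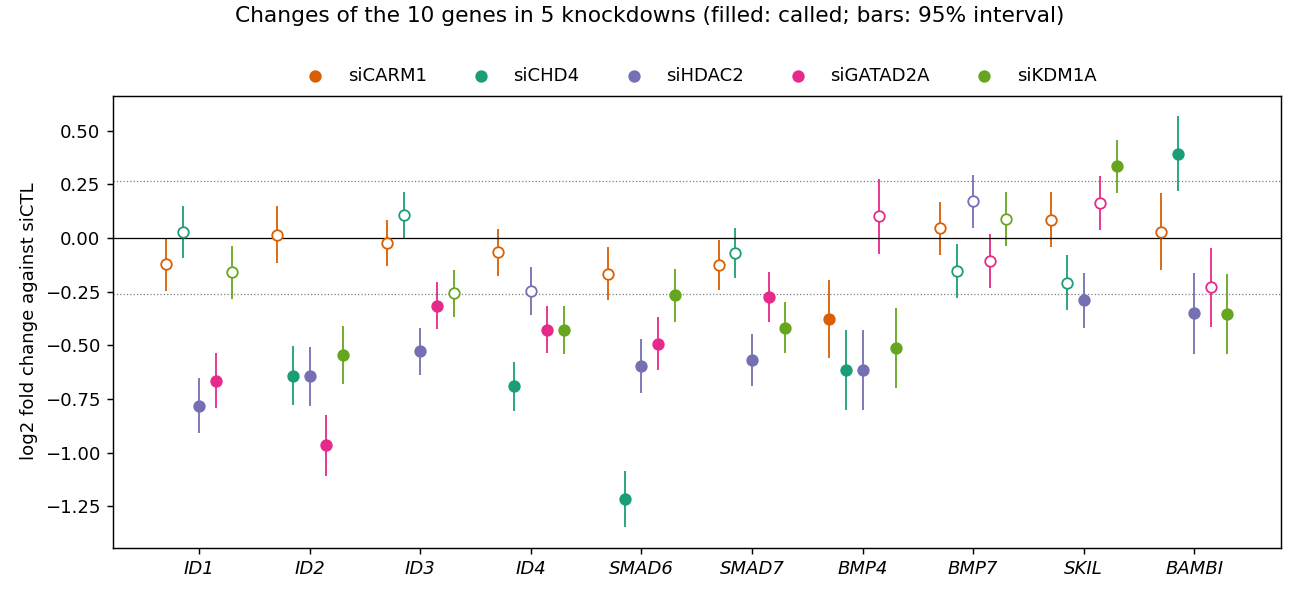
Log2 fold change against siCTL (y axis) of each of the 10 genes (x axis) in the 5 knockdowns (colours), with 95% intervals as bars. Filled points were called, open points were not, and the dotted lines mark the 1.2-fold minimum. SMAD6 in siCHD4 lies lowest at −1.22, and the called points above 0 are SKIL in siKDM1A and BAMBI in siCHD4.

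Total counts on genes ranged from 19308315 to 28648657 per library, and the targeted gene was reduced in each knockdown. CARM1, HDAC2, GATAD2A and KDM1A were left at 19.3%, 19.7%, 29.8% and 16.6% of the siCTL level, whereas CHD4 was left at 68.9%. Of 6 genes used as HEK293 markers, VIM, CDH2 and LHX1 were expressed (lowest 46.4, 7 and 2.53 FPKM), INA reached at most 1.23 FPKM, and the defining markers NEFM and PAX2 stayed at or below 0.331 FPKM. The summed level of these markers, mostly VIM, was 83.4 to 84.6 FPKM in siCTL, 57.8 to 58.9 in siGATAD2A and between 108 and 152 in the other knockdowns, and its part in the results was not tested. Of 5 markers of other cell types, PTPRC, DCN, ALB and UMOD stayed at or below 0.0379 FPKM in each library and LUM lay between 0.805 and 2.07 FPKM. In bulk RNA, fewer cells expressing a gene and less RNA per cell cannot be told apart.

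The promoters of 4 genes are shown because they carry the contrasts described below: ID1 and ID2, which differed in siCHD4, SMAD6, which had the largest decrease, and BAMBI, which rose in siCHD4. RefSeq promoter windows (250 bases before to 50 after the start, GRCh38.p14) matched 9 of the 10 genes, and BMP7 had no entry. Capitals mark GTCTAGAC, the palindrome bound by SMAD3 and SMAD4, and GGCGCC, a GC-rich element bound by SMAD1 and SMAD5, and each reads the same on both strands. The windows lie at chr20:31605039-31605338 (ID1), chr2:8681806-8682105 (ID2), chr15:66701986-66702285 (SMAD6) and chr10:28677271-28677570 (BAMBI), all on the plus strand.
ID1: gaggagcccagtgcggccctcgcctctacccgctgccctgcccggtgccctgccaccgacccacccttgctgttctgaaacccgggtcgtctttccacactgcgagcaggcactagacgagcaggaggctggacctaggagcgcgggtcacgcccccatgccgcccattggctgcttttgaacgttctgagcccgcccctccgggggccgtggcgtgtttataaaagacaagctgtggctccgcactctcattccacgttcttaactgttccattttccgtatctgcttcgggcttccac
ID2: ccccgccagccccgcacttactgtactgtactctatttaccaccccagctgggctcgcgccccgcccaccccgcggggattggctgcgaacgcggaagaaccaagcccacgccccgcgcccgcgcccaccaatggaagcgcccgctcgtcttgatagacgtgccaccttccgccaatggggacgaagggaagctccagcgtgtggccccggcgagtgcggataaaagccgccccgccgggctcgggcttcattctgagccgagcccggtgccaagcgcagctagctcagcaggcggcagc
SMAD6: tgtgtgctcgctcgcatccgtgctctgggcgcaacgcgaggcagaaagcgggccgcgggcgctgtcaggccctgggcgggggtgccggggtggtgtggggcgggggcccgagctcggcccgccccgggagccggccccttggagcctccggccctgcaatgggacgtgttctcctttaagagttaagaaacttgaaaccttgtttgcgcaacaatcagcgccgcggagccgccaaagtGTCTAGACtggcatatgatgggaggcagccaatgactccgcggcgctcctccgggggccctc
BAMBI: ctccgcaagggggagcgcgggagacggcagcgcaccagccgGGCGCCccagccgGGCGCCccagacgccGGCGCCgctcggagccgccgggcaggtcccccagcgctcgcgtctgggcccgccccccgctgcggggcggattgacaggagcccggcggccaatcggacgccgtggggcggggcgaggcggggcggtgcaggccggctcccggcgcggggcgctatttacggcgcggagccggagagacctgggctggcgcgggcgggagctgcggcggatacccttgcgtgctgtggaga
The SMAD6 window held GTCTAGAC once, starting 12 bases before the start site (position −12), and 0.202% of the 35116 promoter windows in the table held it. The BAMBI window held GGCGCC at 3 positions, −209, −196 and −181, and 19.2% of all windows held it at least once. GGCGCC was also present in 1 of the 3 BMP4 windows, at −232 and 2, and in the SKIL window, at −190. Neither motif was found in the windows of the 4 ID genes or SMAD7, and sequence outside the windows and inexact matches were not searched. A match in such a window is a description of its letters and was not tested for binding.

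In siCTL, the 10 genes spanned a more than 10-fold range of length-corrected level, and none of the neighbours in this order overlapped between the siCTL libraries. ID3 stood highest at 84.3 ± 0.54 FPKM (SD, n = 2) and ID1 followed at 77.3 ± 3.4 FPKM. ID4 lay at 31.5 ± 2.5 and ID2 at 22.3 ± 0.45 FPKM. The other genes were lower, with SMAD7 at 18.0, SKIL at 16.4, BMP7 at 12.8, SMAD6 at 11.8, BAMBI at 9.52 and BMP4 at 7.22 FPKM.

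ID1 (ENSG00000125968.9, chr20:30193086-30194318 on GRCh37, plus strand) was measured at 104 and 98.0 CPM (read counts scaled to library size) in the siCTL libraries. It fell to 54.8 and 62.0 CPM in siHDAC2 and to 63.6 and 63.7 CPM in siGATAD2A. It stood at 98.5 and 86.2 CPM in siCARM1, 100.2 and 105 CPM in siCHD4 and 89.6 and 90.7 CPM in siKDM1A. The siHDAC2 and siGATAD2A libraries were thus below those of each other group, while siCHD4, siCTL, siCARM1 and siKDM1A, in that order of their means, each overlapped their neighbour. The log2 fold change was −0.78 ± 0.063 (SE) in siHDAC2 (edgeR adjusted p = 3.25e-11) and −0.66 ± 0.062 in siGATAD2A (edgeR adjusted p = 1.88e-10). In siCHD4 it was 0.03, with a 95% interval of −0.09 to 0.15.

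ID3 (ENSG00000117318.9, chr1:23884417-23885992, minus strand) had a similar order of groups. Its level was 133 and 135 CPM in siCTL, 135 and 128 CPM in siCARM1 and 141 and 146 CPM in siCHD4. It was 90.4 and 94.6 CPM in siHDAC2, 114 and 101 CPM in siGATAD2A and 114 and 110.0 CPM in siKDM1A. The last 3 groups lay below siCTL without overlap, siHDAC2 lowest, and the siCHD4 libraries lay above it. The decrease was called in siHDAC2, with a log2 fold change of −0.53 ± 0.054 (edgeR adjusted p = 5.46e-09), and in siGATAD2A, with −0.31 ± 0.053 (edgeR adjusted p = 1.08e-05). Without the second siGATAD2A library the latter was −0.23 and under the fold minimum. In siKDM1A the fold was 1.195, just under the minimum, and the change was called in 4 alternative fits and in 2 of the fits that leave out 1 library.

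ID2 (ENSG00000115738.10, chr2:8818975-8824591, plus strand) fell in 4 knockdowns and not in siCARM1. The siCTL libraries held 51.5 and 53.2 CPM and the siCARM1 libraries 51.0 and 55.1 CPM. The level was 31.9 and 35.2 CPM in siCHD4, 33.2 and 33.8 CPM in siHDAC2 and 36.0 and 35.8 CPM in siKDM1A. It was lowest in siGATAD2A, at 26.4 and 27.2 CPM. Each library of these 4 groups lay below the siCTL and siCARM1 libraries, siCHD4 and siHDAC2 overlapped each other, and siGATAD2A stood apart at the bottom. In siGATAD2A the log2 fold change was −0.97 ± 0.069 (edgeR adjusted p = 5.38e-13), and in siCHD4, siHDAC2 and siKDM1A it was −0.64, −0.64 and −0.54. In siCARM1 it was 0.02, with a 95% interval of −0.12 to 0.15. Among the exonic bases of ID2, 6.55% lie opposite the antisense gene ID2-AS1, whose mean count over the 12 libraries was 61.8, and the counts used here separate the strands.

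ID4 (ENSG00000172201.12, chr6:19837601-19842428, plus strand) was lowest in siCHD4, where ID1 and ID3 had not fallen. Its level was 136 and 122 CPM in siCTL and 125 and 122 CPM in siCARM1. It was 75.8 and 83.9 CPM in siCHD4, 106 and 111 CPM in siHDAC2, 95.5 and 96.5 CPM in siGATAD2A and 95.4 and 96.3 CPM in siKDM1A. Only siCARM1 overlapped siCTL, the siGATAD2A and siKDM1A libraries overlapped each other, and siCHD4 stood below them. The log2 fold change was −0.69 ± 0.056 in siCHD4 (edgeR adjusted p = 2.98e-12), −0.43 in both siGATAD2A and siKDM1A, and −0.25 in siHDAC2, where the fold of 1.186 missed the minimum. It passed the minimum in siHDAC2 without the second siCTL library (−0.32) or without the second siHDAC2 library (−0.29). With all libraries, it also passed under a gene filter that kept every biotype (−0.27).

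Summed over the 4 ID genes, the level was 219 and 212 FPKM in siCTL and 139 and 148 FPKM in siHDAC2, or 66.4% of siCTL. It was 70.2% of siCTL in siGATAD2A, 82.6% in siKDM1A, 91.8% in siCHD4 and 95.8% in siCARM1. From siCTL to siCHD4, the mean levels of ID2 and ID4 fell from 22.3 to 13.9 FPKM and from 31.5 to 18.96 FPKM. ID1 went from 77.3 to 76.6 FPKM and ID3 from 84.3 to 88.4 FPKM, so the lower sum in siCHD4 came mostly from ID2 and ID4. FPKM and CPM were scaled by different library totals, and by mean CPM ID1 went from 101 to 103. The E protein gene TCF3, whose product the ID proteins bind, was called higher in all 5 knockdowns, with log2 fold changes from 0.27 in siCARM1 to 0.80 in siCHD4. Its level was 15.9 and 16.0 FPKM in siCTL and 27.6 and 26.7 FPKM in siCHD4, and each knockdown library lay above the siCTL libraries. The other E protein genes did not follow it: TCF4 was called lower in siCHD4 (−0.63) and in no other knockdown, and TCF12 was not called, with log2 fold changes between −0.14 and 0.16.

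**Figure D2:**
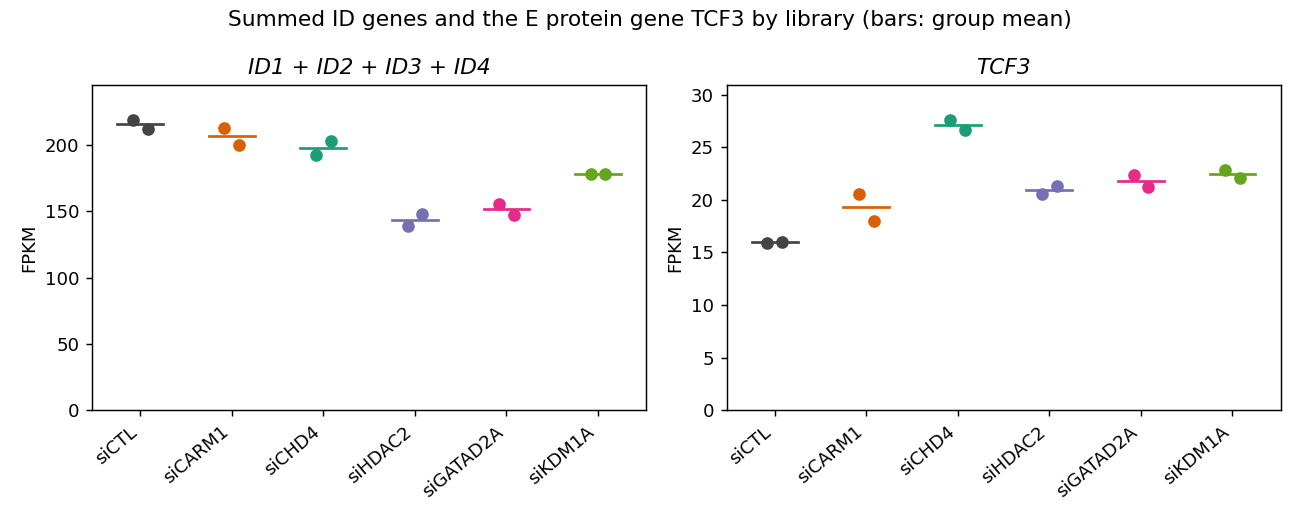
Summed FPKM of ID1 to ID4 (left) and FPKM of TCF3 (right) on the y axes, for the 2 libraries of each group (points) with the group mean (bars). The ID sum is lowest in siHDAC2 (139 and 148 FPKM), and TCF3 is highest in siCHD4 (27.6 and 26.7 FPKM).

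SMAD6 (ENSG00000137834.15, chr15:66994574-67075187, plus strand) was lower in 4 knockdowns and showed the largest change of the 10 genes. Its level was 111 and 103 CPM in siCTL and 47.6 and 44.3 CPM in siCHD4. It was 67.7 and 73.2 CPM in siHDAC2, 73.7 and 78.0 CPM in siGATAD2A, 92.5 and 85.0 CPM in siKDM1A and 99.95 and 89.9 CPM in siCARM1. Each knockdown library lay below both siCTL libraries, and siCHD4 stood below all other groups without overlap, whereas siKDM1A overlapped siCARM1. The log2 fold change in siCHD4 was −1.22 ± 0.064 (edgeR adjusted p = 1.25e-16), although CHD4 RNA itself was reduced the least of the 5 targets. The change in siKDM1A (−0.27) was smaller than those in siGATAD2A (−0.49) and siHDAC2 (−0.59). The siKDM1A call was lost without the first siCTL library or without the second siKDM1A library, where the change was −0.21.

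SMAD7 (ENSG00000101665.9, chr18:46446223-46477335, minus strand) did not share the siCHD4 decrease of SMAD6. It lay at 75.6 and 74.8 CPM in siCTL and at 71.6 CPM in both siCHD4 libraries. It lay at 71.6 and 66.1 CPM in siCARM1, 48.9 and 52.4 CPM in siHDAC2, 64.0 and 60.4 CPM in siGATAD2A and 56.3 CPM in both siKDM1A libraries. All knockdown libraries were below siCTL, siHDAC2 the furthest, and the groups from siCHD4 to siHDAC2 did not overlap apart from siCHD4 with siCARM1. In siHDAC2 the log2 fold change was −0.57 ± 0.059 (edgeR adjusted p = 6.40e-09), and in siKDM1A it was −0.42 ± 0.058 (edgeR adjusted p = 7.84e-07). The call in siGATAD2A, at −0.27, was lost without the second siGATAD2A library (−0.23). In siCHD4 the change was −0.07, with a 95% interval of −0.19 to 0.04.

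**Figure D3:**
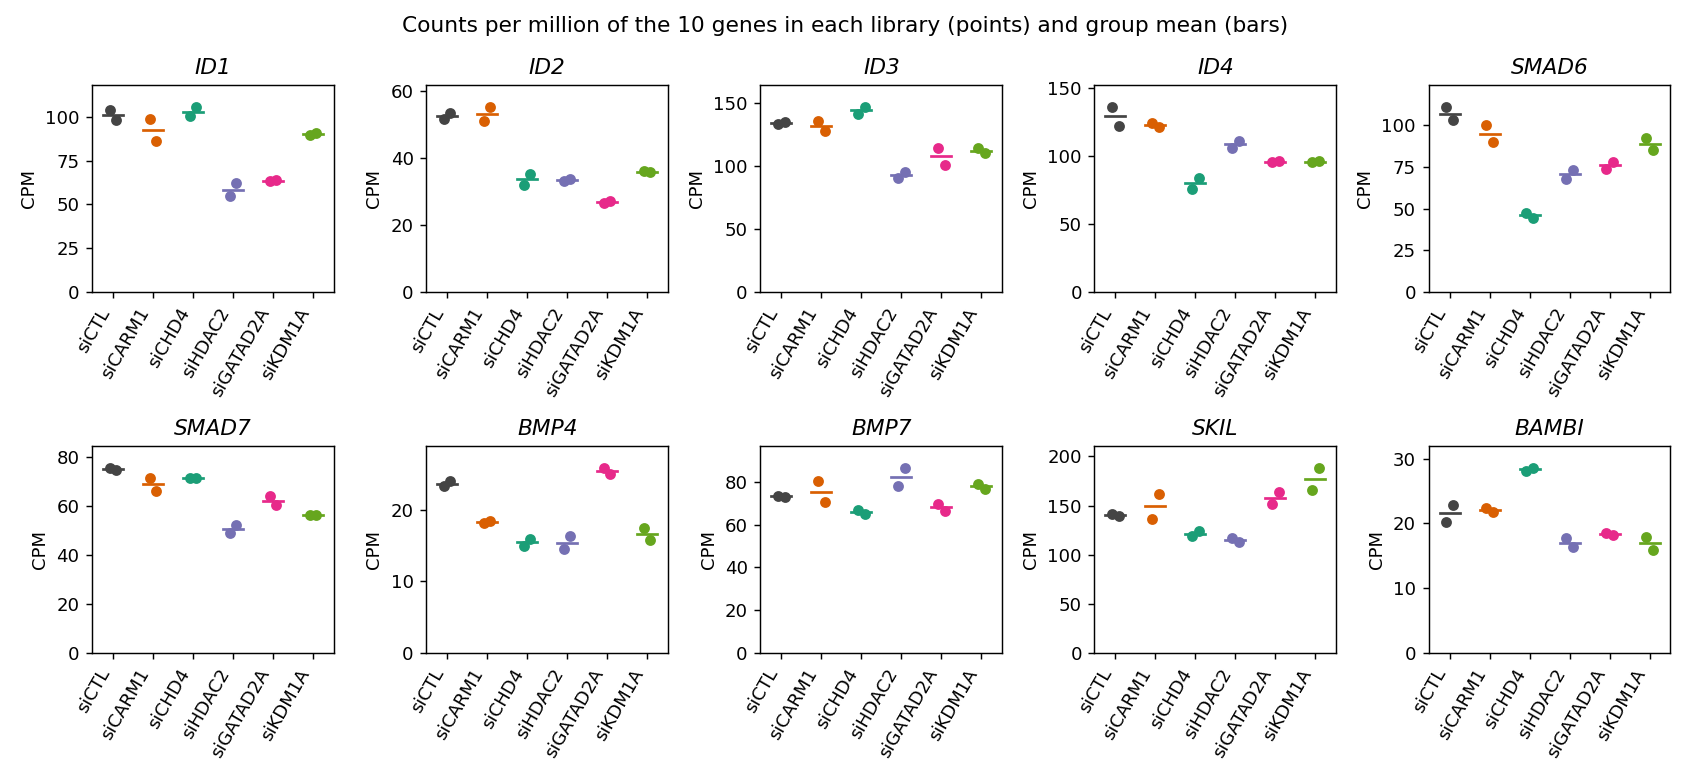
CPM (y axes, from 0) of each of the 10 genes in the 2 libraries of each siRNA group (points), with the group mean (bars). ID2 lies below siCTL in 4 knockdowns and SMAD6 in all 5, lowest in siCHD4 (47.6 and 44.3 CPM), and BMP7 lies between 65.0 and 86.6 CPM in the knockdown libraries.

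Of the ligand genes, BMP4 fell in 4 knockdowns and BMP7 was called in none. BMP4 (ENSG00000125378.16, chr14:54416454-54425479, minus strand) was at 23.3 and 24.1 CPM in siCTL, 18.1 and 18.4 CPM in siCARM1 and 14.97 and 15.9 CPM in siCHD4. It was at 14.5 and 16.3 CPM in siHDAC2, 17.4 and 15.8 CPM in siKDM1A and 25.9 and 24.96 CPM in siGATAD2A. The siGATAD2A libraries thus lay above siCTL and the other 4 groups below it. BMP4 was the only 1 of the 10 genes called in siCARM1, with a log2 fold change of −0.38 ± 0.089 (edgeR adjusted p = 0.000814). In siCHD4 and siHDAC2 it was −0.62 and −0.61, in siKDM1A −0.51, and in siGATAD2A 0.10 with a 95% interval of −0.07 to 0.28. Of the exonic bases of BMP4, 16.3% lie opposite a noncoding gene whose mean count was 7.17.

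BMP7 (ENSG00000101144.13, chr20:55743809-55841697, minus strand) lay at 73.6 and 73.1 CPM in siCTL and between 65.0 and 86.6 CPM in the 10 knockdown libraries. By group mean, siHDAC2 (78.2 and 86.6 CPM) was highest and siCHD4 (67.0 and 65.0 CPM) lowest, but siHDAC2 overlapped siKDM1A and siCARM1, and siCHD4 overlapped siGATAD2A. Its log2 fold changes ran from −0.15 in siCHD4 to 0.17 in siHDAC2, and both passed the adjusted p-value (edgeR adjusted p = 0.0306 and 0.0265) without reaching 1.2-fold.

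SKIL and BAMBI were called in both directions. SKIL (ENSG00000136603.14, chr3:170075130-170114623, plus strand) was at 141 and 139.8 CPM in siCTL, 165 and 188 CPM in siKDM1A and 117 and 113 CPM in siHDAC2. It was at 137 and 162 CPM in siCARM1, 151 and 164 CPM in siGATAD2A and 119 and 124 CPM in siCHD4. The siKDM1A libraries were the highest and the siHDAC2 libraries the lowest of the 12. The log2 fold change was 0.33 ± 0.061 in siKDM1A (edgeR adjusted p = 5.31e-05) and −0.29 ± 0.063 in siHDAC2 (edgeR adjusted p = 0.000549). Without the second siKDM1A library the increase was 0.24 and under the fold minimum.

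BAMBI (ENSG00000095739.11, chr10:28966439-28971861, plus strand) was at 20.2 and 22.9 CPM in siCTL, 22.4 and 21.7 CPM in siCARM1 and 28.1 and 28.6 CPM in siCHD4. It was at 17.7 and 16.3 CPM in siHDAC2, 18.6 and 18.3 CPM in siGATAD2A and 17.9 and 15.9 CPM in siKDM1A. The siCHD4 libraries lay above and the siHDAC2, siGATAD2A and siKDM1A libraries below siCTL, and siHDAC2 overlapped siKDM1A. BAMBI rose in siCHD4, by 0.39 ± 0.086 (edgeR adjusted p = 0.000198), where SMAD6, ID2, ID4 and BMP4 had fallen. It fell in siHDAC2 (−0.35) and in siKDM1A (−0.36). Those decreases rested on few libraries: each lost its call without the second siCTL library (−0.26 in both), in siHDAC2 also without its own second library (−0.29) and in siKDM1A without its own second library (−0.27). In siGATAD2A the change of −0.23 was called without the first siCTL library, at −0.31.

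Other tested genes shared the profiles of members called in at least 3 knockdowns, measured as the root mean square difference of the 5 log2 fold changes. For ID2 the closest gene was SOX18, an endothelial transcription factor, with a difference of 0.12 and no further gene within 0.15. ITGB4, an integrin subunit, was closest to SMAD6 (0.099). By contrast, 81 genes lay within 0.15 of ID4, SIKE1 (0.052) closest, 54 within 0.15 of BAMBI, ZIC5 (0.064) closest, and 43 within 0.15 of SMAD7, CISD3 (0.082) closest. These are distances over 5 comparisons that share siCTL.

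Genes of the rest of the pathway were called in both directions. Of 84 further genes in 9 lists, 68 were tested, and 17 were lower and 26 higher in siCHD4, 19 and 19 in siGATAD2A, 12 and 17 in siCARM1, 10 and 19 in siKDM1A and 11 and 8 in siHDAC2. As shares of the 68 genes, those called lower made up 25% in siCHD4, 27.9% in siGATAD2A, 17.6% in siCARM1, 14.7% in siKDM1A and 16.2% in siHDAC2, where 24.9%, 18.2%, 14.5%, 11.5% and 9.00% of all genes were lower. Those called higher made up 38.2%, 27.9%, 25%, 27.9% and 11.8% in the same order, where 24.0%, 15.7%, 14.9%, 14.2% and 10.6% of all genes were higher. Several of these shares were thus near those of all genes, among them the share lower in siCHD4 and the share higher in siHDAC2. Of the 68 genes, 64 were above the 0.5 FPKM filter in each group, and 2, INHBE and SOSTDC1, were above it in 1 group only. The median log2 fold change of these 68 genes lay between −0.07 and 0.08 in the 5 knockdowns. The counts by list below cover few genes each and are to be read beside these shares of all genes, which several do not exceed.

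Of the 5 BMP ligand genes tested besides BMP4 and BMP7, 4 were higher in siCARM1 (all genes: 14.9%), siCHD4 (24.0%) and siGATAD2A (15.7%). In siHDAC2 (10.6%) and siKDM1A (14.2%), 2 were higher. In each knockdown except siKDM1A, 1 was lower, where 9.00% to 24.9% of all genes were lower. BMP6 was measured at 12.8 and 12.9 CPM in siCTL and at 23.4 to 33.6 CPM in the knockdown libraries, and it was higher in all 5 knockdowns, with log2 fold changes from 0.96 to 1.36. BMP2 rose from 25.3 and 24.9 CPM in siCTL to 123 and 121 CPM in siCHD4, a log2 fold change of 2.28 ± 0.069 (edgeR adjusted p = 8.90e-23), but was lower in siHDAC2 (−0.41). GDF7 had its largest increase in siCHD4 as well (2.12). Of 7 TGF-beta, activin and nodal ligand genes, 6 were higher and 1 lower in siCHD4 (all genes: 24.0% and 24.9%). The counts were 4 and 0 in siKDM1A (14.2% and 11.5%) and 2 and 1 in siCARM1 (14.9% and 14.5%). In siHDAC2 they were 1 and 1 (10.6% and 9.00%), and in siGATAD2A 2 and 3 (15.7% and 18.2%). Among those higher in siCHD4 were INHBB (1.30) and TGFB2 (0.68). INHBE held 4 and 5 counts in the siCTL libraries and 62 and 92 in siCHD4. It was tested only because siCHD4 lifted it above the filter, so its call is no support for the count of 6 higher in siCHD4.

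Extracellular antagonists, which bind BMPs outside the cell, split into genes that rose and genes that fell. GREM1 was at 2.79 and 3.45 CPM in siCTL and at 9.13 to 20.4 CPM in the knockdown libraries, and it was higher in all 5 knockdowns, with log2 fold changes from 1.56 in siHDAC2 to 2.63 in siCHD4, although it passed the filter through the knockdowns and not through siCTL (0.199 FPKM). NOG, from 22 and 24 counts in the siCTL libraries, was higher in 4 knockdowns, most in siCARM1 (2.47 ± 0.25, edgeR adjusted p = 1.15e-09). CHRD, the gene of the antagonist chordin, was lower in 4 knockdowns, most in siGATAD2A (−1.48), and SOSTDC1, at 31 and 32 counts in siCTL, was lower in siCHD4, siGATAD2A and siKDM1A, but it passed the filter only through siCTL (0.607 FPKM), where it was highest.

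Of 14 receptor and coreceptor genes, 6 were lower and 2 higher in siCHD4 (all genes: 24.9% and 24.0%). The counts were 5 and 0 in siCARM1 (14.5% and 14.9%) and 4 and 2 in siGATAD2A (18.2% and 15.7%). In siKDM1A they were 4 and 2 (11.5% and 14.2%), and in siHDAC2 1 and 1 (9.00% and 10.6%). ACVR1, a type I receptor that signals to the BMP SMADs, was lower in siCARM1, siHDAC2, siGATAD2A and siKDM1A, most in siHDAC2 (−0.70 ± 0.10, edgeR adjusted p = 3.36e-06). ACVR1C was lower in siCARM1, siCHD4, siGATAD2A and siKDM1A, most in siCHD4 (−1.38). Of the 6 genes for SMAD4 and the receptor-activated SMADs, 2 were lower in siCHD4 (all genes: 24.9%) and 1 in siGATAD2A (18.2%). In siCARM1, 1 was lower and 1 higher (14.5% and 14.9%), and 0 were called in siHDAC2 and siKDM1A.

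Among 9 further intracellular regulators, TOB1, which restrains SMAD signaling and proliferation, was lower in all 5 knockdowns, from 140.5 and 128 CPM in siCTL to 80.2 and 80.7 CPM in siCHD4. PMEPA1, a TGF-beta target that sequesters SMADs, was higher in siCHD4, siGATAD2A and siKDM1A, by up to 1.04 in siKDM1A, and the ubiquitin ligase gene SMURF1 in siCHD4 and siGATAD2A. Of 8 BMP targets other than the ID genes, 2 were lower and 0 higher in siHDAC2 (all genes: 9.00% and 10.6%). The counts were 3 and 2 in siGATAD2A (18.2% and 15.7%) and 2 and 1 in siKDM1A (11.5% and 14.2%). In siCHD4 they were 1 and 2 (24.9% and 24.0%), and in siCARM1 0 and 1 (14.5% and 14.9%). ATOH8 was higher in siCARM1, siGATAD2A and siKDM1A, HEY1 lower in siCHD4 and siGATAD2A, and DLX2 lower in siHDAC2, siGATAD2A and siKDM1A. Of 8 TGF-beta targets, 3 were lower and 1 higher in siHDAC2 (all genes: 9.00% and 10.6%). The counts were 3 and 2 in siGATAD2A (18.2% and 15.7%) and 1 and 3 in siCHD4 (24.9% and 24.0%). In siKDM1A they were 1 and 4 (11.5% and 14.2%), and in siCARM1 0 and 4 (14.5% and 14.9%). JUNB showed the largest decrease in siHDAC2, from 62.2 and 49.3 CPM in siCTL to 23.0 and 26.8 CPM (log2 fold change −1.15 ± 0.11, edgeR adjusted p = 1.07e-09). CDKN2B, a cell cycle inhibitor gene, was higher in siCARM1, siGATAD2A and siKDM1A.

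**Figure D4:**
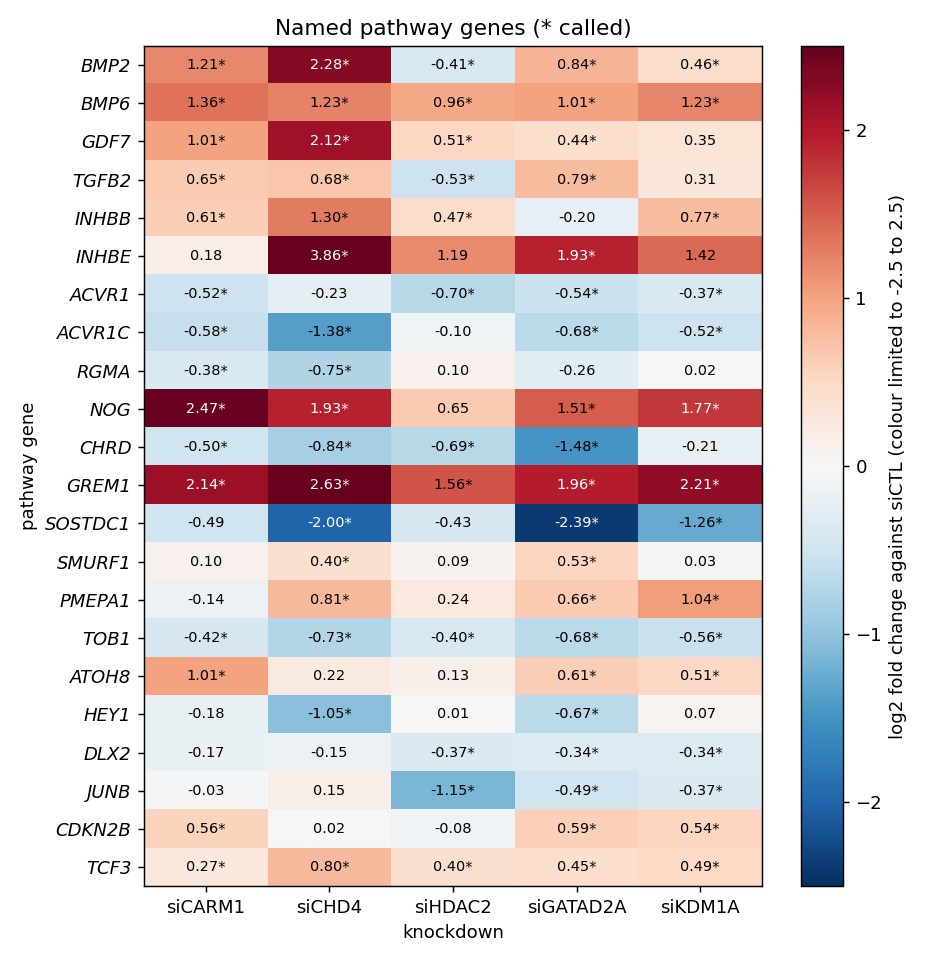
Log2 fold change against siCTL (colour and number) of 22 named pathway genes (rows) in the 5 knockdowns (columns), with asterisks at called changes. BMP6, GREM1 and TCF3 were higher and TOB1 was lower in all 5 knockdowns.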

How the data were processed

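RNA was sequenced from 12 HEK293T libraries, 2 for each of 6 siRNA groups, with a strand-directional kit. The deposited files hold counts per gene that the authors made with STAR 2.7.10 on hg19 (tools as named in the submitters' processing notes; the annotation is not given in the sources used here), and the counts of the strand matching the kit were used. Of 60660 identifiers, 96.7% matched GENCODE gene models lifted to GRCh37. Coding genes above 0.5 FPKM in at least 1 group mean (12830) were fitted with edgeR 4.0.16 in R 4.3.3 (quasi-likelihood test, 6 group means, TMM scaling, Benjamini-Hochberg adjustment over all genes tested). CPM and FPKM were computed from the same counts. CPM used the TMM-scaled totals of the genes tested, and FPKM the unscaled totals over all genes. An exact permutation test of 2 against 2 libraries cannot go below p = 0.333, so none was used. Fits were tested on simulated counts. The genes and the lists were chosen with earlier results of these data known. Beyond the 10 members, pathway genes were named when called in 1 direction in at least 4 knockdowns, or when among the 3 largest mean changes of their list and called in at least 2; TCF4, TCF12 and the comparisons of promoters were added after their values were seen. Some genes that these rules pick are not reported here. Alternatives were RLE scaling, DESeq2 1.42.0, a replicate block, fits of 2 groups, unstranded counts, other gene filters, no fold minimum and each library left out.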

Additional observations from a re-analysis of the deposited data

How the results depend on the processing

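Of the 350 fold changes of the 10 genes under 7 alternative fits, 345 kept their direction and side of the threshold and 5 were newly called; of 600 with 1 library left out, 586 did, 9 lost and 5 gained a call, and 0 reversed. Without a fold minimum, the genes lower numbered 9 in siHDAC2, 8 in siKDM1A, 7 in siGATAD2A, 6 in siCHD4 and 2 in siCARM1, where 17.6%, 20.4%, 26%, 32.5% and 23.1% of all genes were lower. The genes higher then numbered 1 in siHDAC2 and 1 in siGATAD2A, against 0 and 0 (17.8% and 25.5% of all genes). With 1 library left out, the number higher in siKDM1A ranged from 0 to 1, without the second siKDM1A library being 0; the number lower ranged from 4 to 7 in siGATAD2A and from 4 to 7 in siKDM1A. The labels do not say whether same-numbered libraries were handled together. Deviations of same-numbered libraries correlated between −0.183 and 0.17 over 15 pairs of groups, which with 2 libraries a group cannot settle it. A replicate block left all 50 calls as they were. It gave 8 genes lower in siHDAC2, 6 in siGATAD2A, 6 in siKDM1A, 4 in siCHD4 and 1 in siCARM1. Each median over all genes moved by at most 0.0137. With 2 libraries a group, some smaller changes could not be resolved. Of the 50 changes, 9 passed the adjusted p-value and missed only the fold minimum.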

Other observations

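Noncoding genes that overlap members on the opposite strand had low counts. ID2-AS1, opposite ID2, held 4.38 and 5.01 CPM in the siCTL libraries and between 1.53 and 3.40 CPM in the 10 knockdown libraries, all below siCTL, siCARM1 included, where ID2 itself was not called. LNC-LBCS, whose gene overlaps ID4 on the opposite strand with 0 shared exonic bases, held 20 and 20 counts in siCTL and 79 and 62 in siCHD4, the group in which ID4 was lowest; in the other knockdown libraries it held 12 to 30. These genes are noncoding and were not among those tested.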
